A study of Mus musculus with 6 samples.

Results

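Frizzled proteins are the cell-surface receptors for Wnt ligands. A cysteine-rich domain outside the cell binds the lipid-carrying Wnt, and the membrane-spanning part hands the signal to Dishevelled inside the cell, either towards beta-catenin together with Lrp5 or Lrp6 or towards planar cell polarity and cytoskeletal responses. The mammalian family falls into subgroups by sequence: Fzd1 with Fzd2 and Fzd7, Fzd5 with Fzd8, Fzd3 with Fzd6, and Fzd4 with Fzd9 and Fzd10. In the early gonad Wnt signalling is best known through Wnt4 and Rspo1, which promote ovarian development.

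The receptors were read in epithelium cut by laser microdissection from the gonadal primordium of mouse fetuses at stage E10.5. There were 3 pools of the wild-type genotype (+/+) and 3 of the genotype without functional Emx2, a homeobox gene (-/-, here KO). Each pool held material of 3 fetuses and was hybridised to 1 array of 45101 probe sets. The strain and the structure of the Emx2 allele are not given in the sources used here, and nothing states how litters were spread over the pools, so p-values measure the spread between these pools, which may be technical in part. All 26 probe sets whose annotated symbol was exactly Fzd1 to Fzd10 were taken, which is 10 of the 18194 genes named on the array. The probe sets were chosen by symbol alone, but the family was selected on results of this same KO and wild-type contrast, that is, on its fold changes and adjusted p-values. The adjusted p-values below therefore describe the fit over all probe sets and are no independent evidence that Frizzled genes responded.

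Values are linear intensities after the arrays were brought to a common trimmed mean, and the dim limit below which probe sets were left out of the test was an intensity of 26.4. The arrays before scaling had trimmed means that differed by up to 1.47 times. The single Emx2 probe set read 1302 to 2120 in wild-type and 1480 to 1746 in KO pools, and since its position relative to the mutation is not given, it does not check the labels. Of the primordium genes, Lhx9 read 5726 to 6702 in wild-type and 5783 to 6868 in KO pools. Wt1 read 2484 to 2756 and 1658 to 2251, Gata4 229 to 344 and 406 to 427, and Nr5a1 1419 to 2060 and 601 to 802. Only Nr5a1 among them passed the test used below, as lower in KO (log2 fold change -1.22, limma adjusted p = 0.000492). The pools of the KO group differed from the wild-type pools in markers of fetal sex: Xist read 13.3 to 69.9 in wild-type and 9321 to 9888 in KO pools, and the Y-linked gene Eif2s3y 709 to 813 and 99.8 to 226. None of the 10 Frizzled genes lies on the X or Y chromosome in the RefSeq table, and genotype and fetal sex cannot be told apart in these pools.

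Messenger RNA of Fzd1, Fzd2, Fzd4 and Fzd8 was higher in the Emx2 KO epithelium, by 1.52- to 2.07-fold at the 6 probe sets that passed the test. No Frizzled probe set passed as lower. Of 26 probe sets, 17 from 8 genes lay above the dim limit and were tested, 6 were called higher, 0 were called lower and 11 did not pass. Over all 27022 tested probe sets 2.75% were called higher and 1.93% lower (limma, adjusted p under 0.05), and at an unadjusted p under 0.05 there were 9 Frizzled probe sets, 1 of them lower, against 17.3% of all in either direction. The log2 fold change (KO minus wild-type, here log2 change) was above 0 at 14 of the 17 and at 50.9% of all tested probe sets, with medians of 0.32 and 0.01. In either direction 4.68% of all were called. Probe sets of a gene share its transcript and are not independent, and in microdissected tissue more cells that express a receptor and more of its RNA per cell cannot be told apart.

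**Figure D1:**
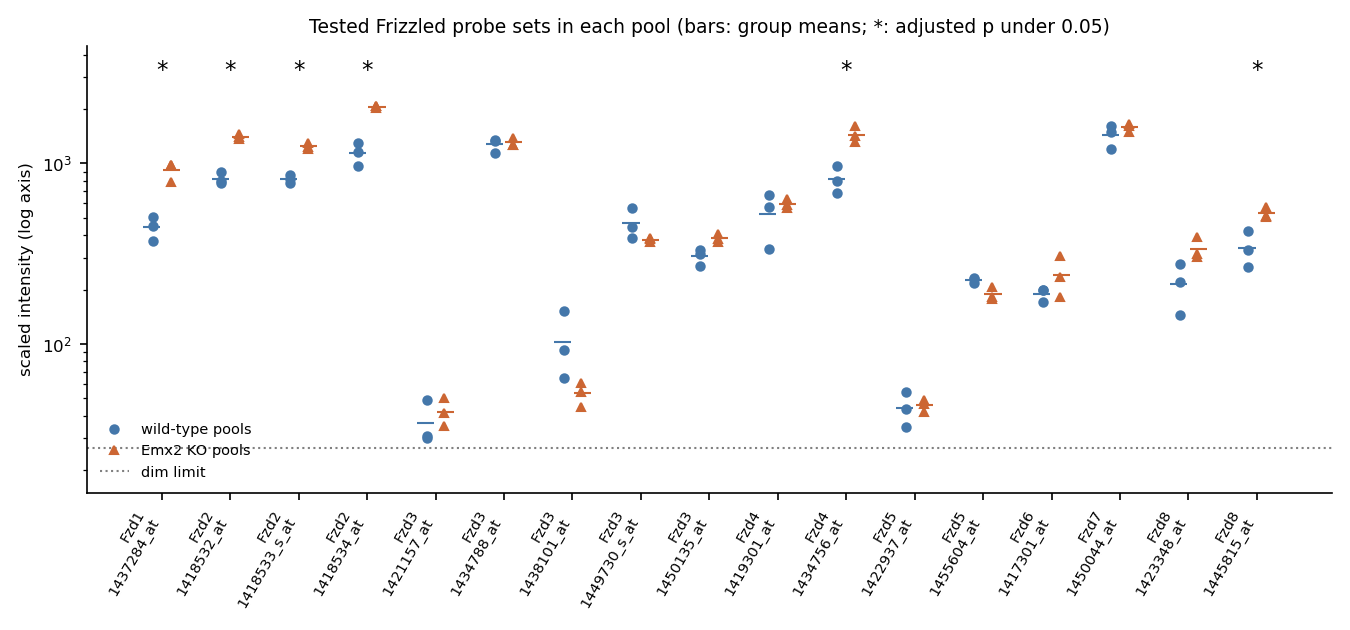
Scaled intensity (log axis) of the 17 tested Frizzled probe sets in the 3 wild-type (circles) and 3 Emx2 KO pools (triangles), with group means as bars, the dim limit of 26.4 as a dotted line and an asterisk over the 6 probe sets called higher. At all 6 the KO pools lie above every wild-type pool.

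Fzd2, a receptor that transmits Wnt5a signals among others, was the best covered of the genes that rose, with 3 probe sets that all passed. The brightest, 1418534_at, read 974, 1155 and 1301 (wild-type) and 2028, 2092 and 2079 (KO). The KO pools lay close together and all stood above the highest wild-type pool. The means were 1143 ± 164 and 2066 ± 33.8 (SD, n = 3 each), a log2 fold change of 0.86 (SE 0.11, 95% interval 0.62 to 1.11, adjusted p = 0.000734), or 1.82-fold. Probe set 1418532_at read 776, 902 and 797 (wild-type) and 1396, 1452 and 1364 (KO) (log2 change 0.77 ± 0.11 SE, adjusted p = 0.00102). Probe set 1418533_s_at, whose suffix marks probes that may also bind other transcripts, read 779, 863 and 818 against 1235, 1293 and 1209 (log2 change 0.60 ± 0.10 SE, adjusted p = 0.00445). All 3 probe sets of Fzd2 thus placed every KO pool above every wild-type pool, with changes of 1.52- to 1.82-fold. All 3 passed in each of the 6 fits with 1 pool left out, while 1418533_s_at did not pass on the deposited scale (adjusted p = 0.094).

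Fzd1, the close relative of Fzd2, showed the greatest change of the family at its probe set 1437284_at. This probe set read 452, 373 and 507 (wild-type) and 980.5, 980.1 and 792 (KO). The lowest KO pool, replicate 3, still lay well above the highest wild-type pool. The means were 444 ± 67.1 and 918 ± 109 (SD, n = 3 each), a log2 fold change of 1.05 (SE 0.14, 95% interval 0.74 to 1.37, adjusted p = 0.001), or 2.07-fold, and it passed in each of the 6 fits with 1 pool left out (0.93 to 1.15). It was the 1 called Frizzled probe set with a change of at least 2-fold. The other Fzd1 probe set, 1422985_at, read 2.90 to 6.58 in wild-type and 8.95 to 11.4 in KO pools, under the dim limit throughout, and was not tested. All of its wild-type values lay under the floor of 7.99, below which values carry no order.

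Fzd7, the remaining member of that subgroup and a receptor of pluripotent and intestinal stem cells, did not pass. Its tested probe set 1450044_at read 1484, 1205 and 1604 (wild-type) and 1655, 1487 and 1621 (KO). KO replicate 2 lay within the wild-type range. The log2 fold change was 0.16 (SE 0.12, 95% interval -0.10 to 0.41, adjusted p = 0.551), so the interval allows a rise of up to 1.33-fold and a fall to 0.936-fold. A dimmer Fzd7 probe set, 1450043_at, read 2.68 to 29.9 over the 6 pools and was not tested.

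Fzd4 is the receptor of Norrin, a ligand that is not a Wnt, in the growth of retinal vessels, and also binds Wnts. Its brightest probe set, 1434756_at, read 795, 689 and 969.8 (wild-type) and 1420, 1606 and 1309 (KO). All KO pools lay above all wild-type pools, and the log2 fold change was 0.83 (SE 0.14, 95% interval 0.54 to 1.12, adjusted p = 0.00323), or 1.78-fold. The other tested Fzd4 probe set, 1419301_at, did not pass. It read 576, 337 and 667 (wild-type) and 632, 563 and 587 (KO), with wild-type replicate 2 far below the rest and the other pools intermixed (log2 change 0.23 ± 0.21 SE, 95% interval -0.21 to 0.67, adjusted p = 0.638). Without wild-type replicate 2 its log2 fold change was -0.06. The mean of both probe sets gave 0.53 (adjusted p = 0.0838), so the rise of Fzd4 rests on 1 of its 2 tested probe sets. A further, dim probe set, 1449416_at, read 2.32 to 7.95 in wild-type and 12.3 to 16.7 in KO pools and was not tested.

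Fzd8, which shares its subgroup with Fzd5, had all KO pools above all wild-type pools at both of its probe sets, of which 1 passed. The brighter, 1445815_at, read 330, 267 and 424 (wild-type) and 575, 514 and 505 (KO), with no overlap (log2 change 0.67 ± 0.17 SE, 95% interval 0.31 to 1.03, adjusted p = 0.0388), or 1.59-fold. Probe set 1423348_at read 276, 144 and 221 (wild-type) and 303, 315 and 394 (KO), again with no overlap but a narrower gap, and missed the threshold (log2 change 0.70 ± 0.22 SE, adjusted p = 0.101). The size was alike at both, and the call was the least secure of the family. It was kept without wild-type replicate 3 (0.84, adjusted p = 0.00781) and lost without wild-type replicate 1 (0.66, adjusted p = 0.124), wild-type replicate 2 (0.51, adjusted p = 0.111), KO replicate 1 (0.61, adjusted p = 0.142), KO replicate 2 (0.69, adjusted p = 0.0961) and KO replicate 3 (0.70, adjusted p = 0.0948).

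Fzd5, which is needed for yolk sac vessels and eye development, gave a different picture from Fzd8. Its brighter probe set 1455604_at read 219, 229 and 232 (wild-type) and 207, 177 and 182 (KO). All KO pools lay below all wild-type pools, by a small amount that did not pass (log2 change -0.26 ± 0.16 SE, 95% interval -0.60 to 0.07, adjusted p = 0.432). Its dimmer probe set 1422937_at read 34.6 to 54.5 in wild-type and 41.7 to 48.7 in KO pools (log2 change 0.07 ± 0.28 SE, adjusted p = 0.931), and turned sign without wild-type replicate 1 (-0.09).

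Fzd3 and Fzd6 act in planar cell polarity, Fzd3 in axon guidance and Fzd6 in the alignment of hairs. None of their 6 tested probe sets passed. The brightest Fzd3 probe set, 1434788_at, read 1345, 1135 and 1339 (wild-type) and 1270, 1379 and 1271 (KO). The groups overlapped and the interval was narrow (log2 change 0.04 ± 0.11 SE, 95% interval -0.19 to 0.27, adjusted p = 0.894). Without wild-type replicate 2 it was -0.04. The other 4 tested Fzd3 probe sets did not share a direction. Probe set 1438101_at read 152, 64.9 and 92.5 (wild-type) and 54.2, 61.0 and 44.7 (KO) (log2 change -0.88 ± 0.30 SE, adjusted p = 0.135), and without wild-type replicate 2 it passed (-1.17, adjusted p = 0.0441). Probe set 1450135_at read 269, 332 and 314 (wild-type) and 366, 409 and 380 (KO) (log2 change 0.34 ± 0.14 SE, adjusted p = 0.237). Both of these separated the groups completely, in opposite directions, so the Fzd3 probe sets disagree and single ones do not stand for the gene. Probe set 1449730_s_at gave -0.28 (SE 0.15, adjusted p = 0.388) and 1421157_at 0.22 (SE 0.31, adjusted p = 0.781).

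The tested Fzd6 probe set, 1417301_at, read 199, 198.5 and 170 (wild-type) and 307, 182 and 236 (KO). KO replicate 1 was the highest and KO replicate 2 lay within the wild-type range (log2 change 0.32 ± 0.20 SE, 95% interval -0.10 to 0.75, adjusted p = 0.447). The remaining probe sets of these genes were dim and not tested, Fzd6 reading 2.32 to 25.4 at 2 probe sets and Fzd3 3.82 to 30.5 at 1420087_at.

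Fzd9 and Fzd10 had no probe set whose mean reached the dim limit. Fzd9, a receptor studied in bone and hippocampus, read 16.6, 4.68 and 27.5 (wild-type) and 5.04, 27.2 and 18.8 (KO). Fzd10, known from the dorsal neural tube, read 18.9, 27.99 and 17.4 in wild-type against 10.4, 23.7 and 30.2 at its brighter probe set, and all 6 values of the other lay under the floor of 7.99. Both groups spread over the same low range, so no level or change could be read for these receptors, which is not a sign that they are absent. The Fzd10 probe set 1455689_at was the brightest left out (intensity 20.2 at its mean log2 value) and the Fzd3 probe set 1421157_at the dimmest kept (38.5).

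**Figure D2:**
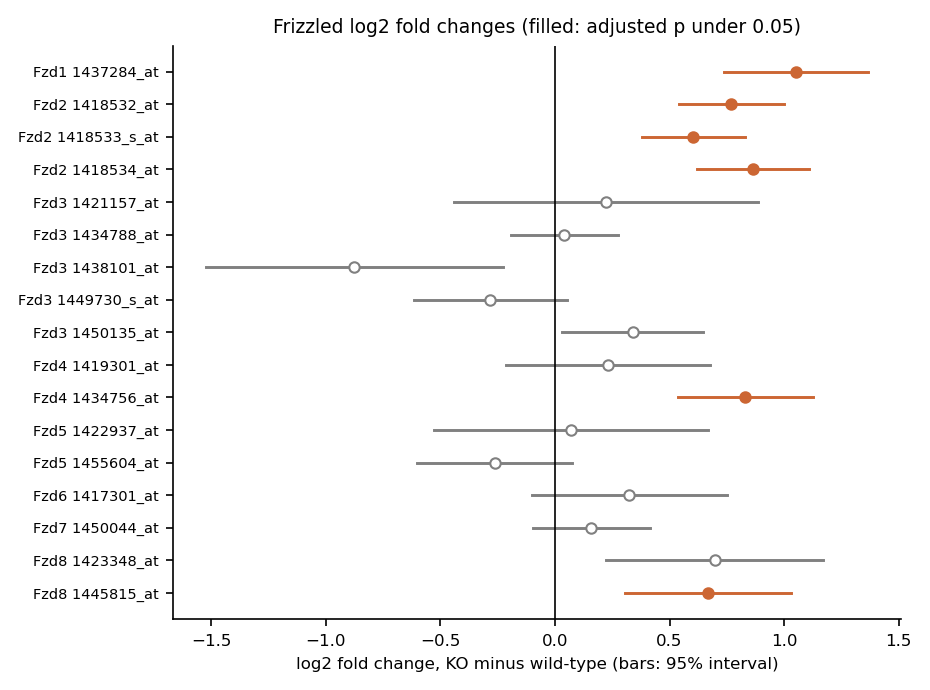
Log2 fold change (KO minus wild-type) of the 17 tested Frizzled probe sets with 95% intervals; filled points passed at an adjusted p under 0.05. The 6 filled points lie between 0.60 and 1.05, and the 5 Fzd3 probe sets run from -0.88 to 0.34.

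In 8 of the 17 tested probe sets all KO pools lay above all wild-type pools, and in 3 all lay below. Over all tested probe sets these shares were 12.0% and 10.0%. The 5 separated probe sets that did not pass were 3 of Fzd3, 1 of Fzd5 and 1 of Fzd8.

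The balance between receptors was followed within arrays, where a ratio of 2 probe sets does not depend on a factor scaling the array. Quantile normalization can change it. A pair of 1 called riser and 1 called faller had been planned, but no Frizzled probe set was called lower, and Fzd7 was taken as the common denominator after the values were seen, as the bright relative of Fzd1 and Fzd2. The ratios are therefore given without a test. The log2 ratio of Fzd1 to Fzd7 was -1.72, -1.69 and -1.66 (wild-type) and -0.75, -0.60 and -1.03 (KO). The wild-type pools hardly differed from each other, and the KO pools were all higher, by 0.89 on average. For Fzd2 to Fzd7 the log2 ratio was -0.61, -0.06 and -0.30 (wild-type) and 0.29, 0.49 and 0.36 (KO), a shift of 0.71. All ratios used the brightest probe set of each gene. Fzd4 to Fzd7 shifted by 0.67 and Fzd8 to Fzd7 by 0.51, each with no overlap. At the other tested Fzd4 probe set, 1419301_at, the groups overlapped, and its log2 change of 0.23 was close to the 0.16 of Fzd7. The upward shift of Fzd4 is therefore given for its brightest probe set alone. Fzd5 to Fzd7 shifted the other way, by -0.42, from -2.76, -2.40 and -2.79 to -3.00, -3.07 and -3.15. Fzd3 to Fzd7 and Fzd6 to Fzd7 overlapped between the groups. Each shift is the difference of 2 log2 fold changes of the fit, so it is no further evidence that these receptors changed unequally. A ratio also does not tell which of its 2 terms moved.

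**Figure D3:**
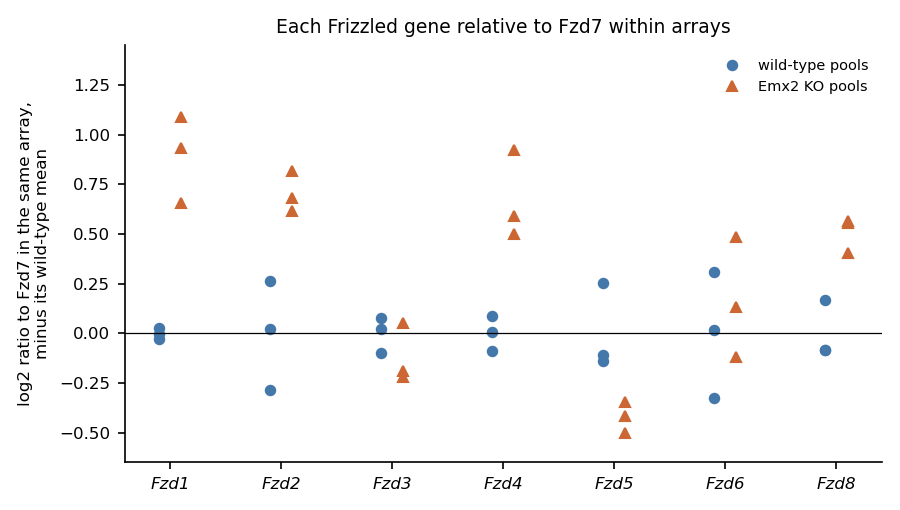
Log2 ratio of each Frizzled gene (brightest probe set) to Fzd7 within the same array, set to a wild-type mean of 0, for the 3 wild-type (circles) and 3 KO pools (triangles). At these probe sets the KO pools lie above the wild-type pools for Fzd1, Fzd2, Fzd4 and Fzd8 and below them for Fzd5.

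The stretches before the gene starts of Fzd1, Fzd4 and Fzd7 are shown so that a reader can compare these relatives. Fzd1 was called higher, Fzd4 was called at only 1 of its 2 tested probe sets, and Fzd7 did not pass. Passing in 1 gene and not in another does not itself show that the genes differed. They are the 250 bases before the start in RefSeq (GRCm38.p6), 5′ to 3′ in the direction of the gene, with capitals on each match to the TCF/LEF core CTTTGA or the GC box GGGCGG on either strand. Of the 10 genes 6 had an entry in the promoter table.
Fzd1 (chr5:4758217-4758466, minus strand): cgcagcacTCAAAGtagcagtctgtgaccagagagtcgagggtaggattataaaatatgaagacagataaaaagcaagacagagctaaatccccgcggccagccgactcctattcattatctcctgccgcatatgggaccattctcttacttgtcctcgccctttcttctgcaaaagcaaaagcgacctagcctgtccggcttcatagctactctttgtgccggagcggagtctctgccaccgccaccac
Fzd4 (chr7:89404116-89404365, plus strand): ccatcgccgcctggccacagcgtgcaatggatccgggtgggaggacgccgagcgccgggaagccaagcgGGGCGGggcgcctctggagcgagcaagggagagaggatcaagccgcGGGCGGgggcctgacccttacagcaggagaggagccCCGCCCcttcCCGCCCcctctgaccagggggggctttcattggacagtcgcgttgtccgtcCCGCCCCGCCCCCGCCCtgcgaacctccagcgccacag
Fzd7 (chr1:59481897-59482146, plus strand): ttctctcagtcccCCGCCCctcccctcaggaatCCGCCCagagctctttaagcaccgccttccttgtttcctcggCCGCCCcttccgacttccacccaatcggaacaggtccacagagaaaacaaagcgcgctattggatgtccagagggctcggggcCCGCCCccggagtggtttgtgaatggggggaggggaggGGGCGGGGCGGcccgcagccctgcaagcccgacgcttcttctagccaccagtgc
The Fzd1 stretch held 1 TCF/LEF core, its first base 242 bases before the start, and no GC box. The Fzd4 and Fzd7 stretches held 7 and 6 GC boxes, some of them overlapping, and no TCF/LEF core. Those of Fzd5, Fzd9 and Fzd10, which are not printed, held 9, 1 and 1 GC boxes and no TCF/LEF core. Of 32851 stretches of the same length in the table, 13.8% held the core CTTTGA and 32.7% a GC box. The homeobox core TAATTA, a sequence bound by many homeodomain proteins and held by 4.84% of all stretches, was not found in any of the 6 Frizzled stretches. The share of G and C was 51.2% in Fzd1, 72.8% in Fzd4 and 65.2% in Fzd7, and the median over all stretches was 52.4%. These are matches of letters in short windows, and say nothing on binding.

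The other genes through which Frizzled receptors act were read from 8 lists, by the brightest tested probe set of each gene. Of 80 genes tested 9 were higher, 10 lower and 61 did not pass. By the same reading 5.41% of the 12315 tested genes were called, 2.93% higher and 2.48% lower. The lists were drawn up with earlier results known, and the 23.8% called among them is a description. The median log2 fold change of the 80 was 0.04. Leaving out wild-type replicate 1 took the count of 19 called genes to 10, wild-type replicate 2 to 11, KO replicate 1 to 11, KO replicate 2 to 12 and KO replicate 3 to 9. On the deposited scale 14 were called, and of the genes named below Lgr4 (log2 change -0.46, adjusted p = 0.299), Rspo1 (adjusted p = 0.61), Tcf7l1 (adjusted p = 0.141), Ankrd6 (adjusted p = 0.0816) and Prickle2 (adjusted p = 0.12) were lost there.

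**Figure D4:**
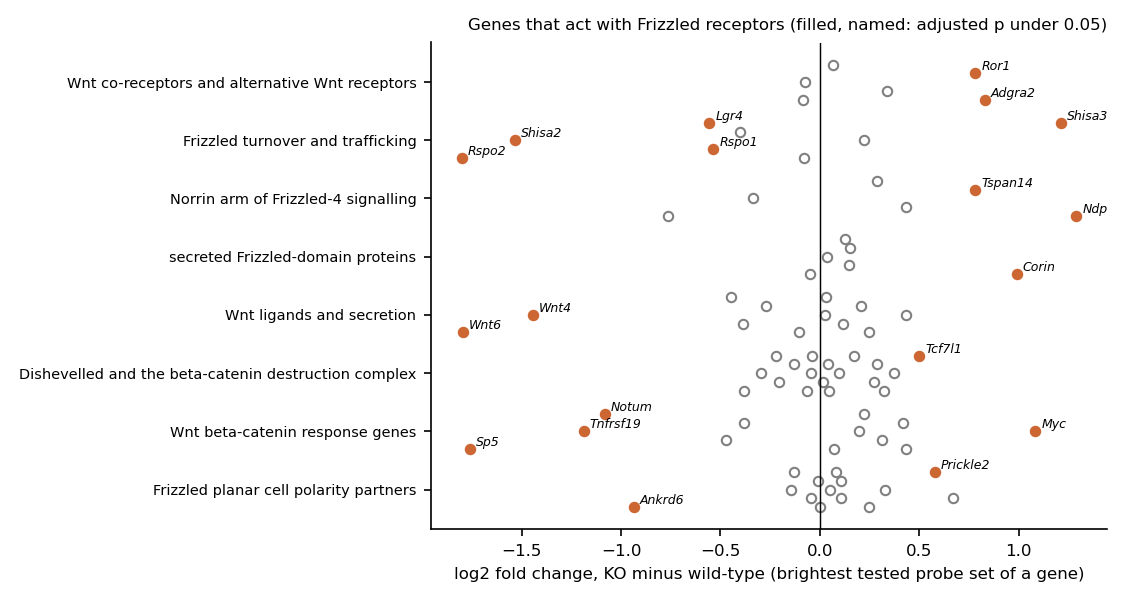
Log2 fold change (KO minus wild-type) of the tested genes of 8 lists around the Frizzled receptors, each by its brightest tested probe set; filled, named points passed at an adjusted p under 0.05. Of 80 distinct genes 9 lie to the right and 10 to the left among the filled points; the KO values of Rspo2 all lie under the dim limit, so its place on the axis is not a measured size.

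Among the ligands and the machinery that secretes them, 2 of 12 tested genes fell, 0 rose and 10 did not pass. Wnt4 read 1900, 2278 and 1554 (wild-type) and 640.5, 601 and 868 (KO) (log2 change -1.44 ± 0.16 SE, adjusted p = 0.000218). Wnt6, a ligand of epithelia, read 156, 271 and 78.1 (wild-type) and 45.2, 57.8 and 30.2 (KO) (log2 change -1.80 ± 0.39 SE, adjusted p = 0.0174). The wild-type pools of Wnt6 differed among themselves by more than 3-fold, and the call was lost without wild-type replicate 1 (-1.76), wild-type replicate 2 (-1.36) or KO replicate 3 (-1.54). Another 9 of the 21 genes of this list lay under the dim limit and were not tested. Among them was Wnt16, named after its values were seen, which read 9.63, 0.980 and 1.16 (wild-type) and 29.1, 27.1 and 44.3 (KO), with every KO value above the dim limit and above every wild-type value. The list's median was -0.04.

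Co-receptors and alternative Wnt receptors had 2 genes that rose, 0 that fell and 4 that did not pass, with a median of 0.20. Ror1, a receptor kinase for Wnt5a, read 502, 574 and 797 (wild-type) and 1068, 960.2 and 1137 (KO) (log2 change 0.78 ± 0.16 SE, adjusted p = 0.0121). Adgra2, an adhesion receptor that aids Wnt7 signalling through Frizzled in vessels, read 134, 120.1 and 123 against 211, 240.1 and 219 (log2 change 0.83 ± 0.16 SE, adjusted p = 0.0108). Ror1 no longer passed without wild-type replicate 1 (0.64) or KO replicate 3 (0.73), and Adgra2 without KO replicate 2 (0.78).

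The genes that set how much Frizzled reaches and stays at the cell surface included the clearest changes of all lists. Of 8 tested, 1 was called higher, 4 lower and 3 did not pass, and the median was -0.47. The 4 include Rspo2, for which the KO level is only background. Shisa2 and Shisa3 belong to a family of endoplasmic reticulum proteins known to hold back immature Frizzled, and they moved apart. Shisa3 read 847, 779 and 929 (wild-type) and 2121, 1942 and 1841 (KO) (log2 change 1.21 ± 0.11 SE, adjusted p = 5.87e-05), and its second probe set gave 1.13 (SE 0.11, adjusted p = 6.95e-05). Shisa2 read 484, 532 and 408 (wild-type) and 161, 163 and 164 (KO) (log2 change -1.53 ± 0.15 SE, adjusted p = 9.67e-05), and its second probe set gave -2.00 (SE 0.25, adjusted p = 0.00058). At both probe sets of each gene the groups lay wide apart. R-spondins bind Lgr receptors and thereby keep the ligases Rnf43 and Znrf3 from removing Frizzled. Lgr4 stood at 4687 ± 28.6 in wild-type and at 3206 ± 398 in KO pools, and fell (log2 change -0.56 ± 0.10 SE, adjusted p = 0.0043). Rspo2 read 48.8, 42.4 and 67.3 (wild-type) and 11.5, 18.5 and 15.5 (KO). All of its KO values lay under the dim limit, so it entered the test through its wild-type values and the size of its difference is not given. It met the threshold (adjusted p = 0.00811), but not with a floor at the 40th percentile (adjusted p = 0.0569), and without any 1 of the wild-type pools it was not tested. Rspo1, named outside the rule as the last of the 5 called, stood at 632.5 ± 94.9 and 433 ± 10.2 and fell (log2 change -0.54 ± 0.14 SE, adjusted p = 0.0447). It passed without wild-type replicate 3 and was lost without wild-type replicate 1 (-0.51), wild-type replicate 2 (-0.44), KO replicate 1 (-0.52), KO replicate 2 (-0.55) or KO replicate 3 (-0.53). The list's count of genes called lower was 2 without wild-type replicate 1 or wild-type replicate 2.

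The list for the Norrin arm, which works through Fzd4, held Ndp, Tspan12, Tspan5, Tspan14, Tspan15 and Tspan17. Of these 6 tested genes 2 were higher and 0 lower, with a median of 0.36. Besides Ndp and Tspan12 these are other tetraspanins, so the count and the median do not stand for the Norrin arm itself. Ndp, which encodes Norrin, read 38.2, 20.9 and 26.6 (wild-type) and 60.8, 58.4 and 87.2 (KO) (log2 change 1.29 ± 0.31 SE, adjusted p = 0.0303). Wild-type replicate 2 lay under the dim limit and wild-type replicate 3 close to it. The size of the rise of Ndp is therefore not well set, and its lowest value over the other settings was 0.93. Tspan14, a tetraspanin better known as a partner of the protease Adam10, rose by 0.78 (SE 0.15, adjusted p = 0.0099). Tspan12, the tetraspanin that joins the Norrin and Fzd4 complex, was named outside the rule for lying at the threshold, at 416 ± 37.9 and 252 ± 70.5 (log2 change -0.76 ± 0.20 SE, adjusted p = 0.0501). It was called lower in 7 of 12 other ways of processing (adjusted p = 0.0475 with scaling to a common median, 0.0402 with the lowest 60% left out) and in none of the 6 fits with 1 pool left out. Ndp no longer passed without wild-type replicate 2 (1.09), KO replicate 1 (1.37), KO replicate 2 (1.39) or KO replicate 3 (1.11), nor Tspan14 without KO replicate 3 (0.75).

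Proteins that carry a Frizzled-type cysteine-rich domain had 1 of 6 tested genes higher, 0 lower and a median of 0.14. Corin, a heart protease that bears such domains, stood at 52.6 ± 14.4 and 103 ± 15.0 and rose (log2 change 0.99 ± 0.25 SE, adjusted p = 0.0441). It was kept without wild-type replicate 2 and lost without wild-type replicate 1 (0.82), wild-type replicate 3 (0.95), KO replicate 1 (0.92), KO replicate 2 (0.93) or KO replicate 3 (1.12). Sfrp1, a secreted Wnt antagonist, gave 2596 ± 202 and 2825 ± 97.3 (log2 change 0.12 ± 0.09 SE, adjusted p = 0.536).

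Downstream of the receptors, 1 of 18 genes of Dishevelled and the beta-catenin complex with its DNA-binding partners was higher, 0 were lower, and the median was 0.03. Tcf7l1, a TCF factor that mostly represses, read 1872 ± 84.3 and 2655 ± 310.5 and rose (log2 change 0.50 ± 0.10 SE, adjusted p = 0.0131). A second, dimmer Tcf7l1 probe set gave 0.08 (adjusted p = 0.839), and the call was lost without KO replicate 3 (0.41). Lef1 gave 379 ± 34.4 and 290 ± 10.3 (log2 change -0.38 ± 0.14 SE, adjusted p = 0.163).

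Of 12 tested genes known to respond to beta-catenin, 1 was called higher, 3 lower and 8 did not pass, with a median of 0.13. Sp5, a transcription factor and direct target, read 70.8, 84.6 and 87.2 (wild-type) and 32.0, 16.5 and 25.5 (KO). The groups did not overlap, but 2 of the 3 KO values lay under the dim limit, so the size of the fall is not well set, at -1.76 ± 0.30 SE on the log2 scale (adjusted p = 0.00434) and -1.27 with a pseudocount of 16. Tnfrsf19 fell by 1.19 on the log2 scale (SE 0.26, adjusted p = 0.0176) and Notum, which strips the lipid from Wnt, fell by 1.08 (SE 0.27, adjusted p = 0.0348). Myc, which many other pathways also drive, stood at 85.4 ± 33.7 and 170 ± 11.8 and rose (log2 change 1.08 ± 0.28 SE, adjusted p = 0.0434). Axin2, a general target named outside the rule, gave 229 ± 35.5 and 238 ± 18.7 (log2 change 0.07 ± 0.17 SE, adjusted p = 0.884). The call of Sp5 was kept with each pool left out. That of Tnfrsf19 was lost without wild-type replicate 1 (-1.13), wild-type replicate 2 (-1.002), KO replicate 1 (-1.04) or KO replicate 3 (-1.07), and that of Notum without wild-type replicate 1 (-1.15), wild-type replicate 2 (-0.93), KO replicate 1 (-0.97) or KO replicate 2 (-0.89). Myc passed without wild-type replicate 3 and was lost without wild-type replicate 1 (1.19), wild-type replicate 2 (0.72), KO replicate 1 (1.07), KO replicate 2 (1.04) or KO replicate 3 (1.14). In the fits in which Tnfrsf19 and Notum were both lost, 1 gene of the list was called lower, and without wild-type replicate 3 there were 2 higher.

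Among 14 planar cell polarity partners of Frizzled, 1 rose, 1 fell and 12 did not pass, with a median of 0.07. Ankrd6, the relative of fly Diego, read 238 ± 37.7 and 125 ± 22.0 at its brightest probe set and fell (log2 change -0.94 ± 0.19 SE, adjusted p = 0.014), and a dimmer one gave -0.47 (adjusted p = 0.713). Prickle2, another polarity core gene, read 853 ± 179 and 1260 ± 149.9 and rose (log2 change 0.58 ± 0.15 SE, adjusted p = 0.0426). Ankrd6 was lost without wild-type replicate 2 (-0.81) or KO replicate 1 (-0.78). Prickle2 passed without wild-type replicate 3 and was lost without wild-type replicate 1 (0.50), wild-type replicate 2 (0.49), KO replicate 1 (0.49), KO replicate 2 (0.66) or KO replicate 3 (0.59).

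Markers of neighbouring tissue differed between the same pools. They were read by the brightest tested probe set of each gene, by which 2.93% of 12315 tested genes were called higher and 2.48% lower. Of 13 tested markers of the mesenchyme under the epithelium 8 were higher and 0 lower in KO, and the summed intensity of the 14 on the array was 14600 to 16380 in wild-type and 21480 to 22560 in KO pools. Of 10 tested endothelial markers 4 were higher and 0 lower, with sums of 1036 to 1422 and 1763 to 2072. Emcn, 1 of the 4, lay under the dim limit in all wild-type pools (19.6 to 25.7) and entered the test through its KO values. The defining marker Pecam1 stayed under the dim limit and at the floor in all KO pools. Tie1 lay at the floor in all wild-type pools. Markers of the coelomic epithelium went both ways, 6 higher and 2 lower of 13, with sums of 14540 to 14800 and 17900 to 20150. Tbx18 stood at 518 ± 156 in wild-type and 4897 ± 374 in KO pools, and the difference in sums largely follows this 1 gene. Germ cell markers were lower in 2 of 5 tested, with sums of 536 to 634 and 346 to 431. Nephric duct markers were lower in 2 of 3, with sums of 214 to 249 and 82.7 to 123.5. Lhx1, 1 of these 2, lay under the dim limit in all KO pools (19.3 to 22.4) and entered through its wild-type values. Of 4 neural crest and neuronal markers tested 1 was lower, with sums of 397 to 491.5 and 157 to 471.5. This was Dct, at 265.6 ± 44.4 and 23.84 ± 17.15. The neuronal genes Tubb3, Elavl3 and Elavl4 read 161, 136 and 113 in KO replicate 2, above every other pool. None of them was called, and Tubb3 was not tested. Of 7 genes of the gonadal primordium 3 were lower and 0 higher, with sums of 12540 to 14740 and 9991 to 11560. Nr0b1, 1 of the 3, lay under the dim limit in all KO pools (10.9 to 24.3) and entered through its wild-type values. Of 4 fetal sex markers 1 was higher and 3 lower. Blood markers did not pass in any of 5 tested, and their sums of 35270 to 37020 and 35420 to 36830 overlapped. Wt1 counts in both the coelomic and the gonadal list. The part of these tissues in the Frizzled values was not tested.

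The genes most like the Frizzled genes of smallest p were taken by Pearson's r of log2 intensity over the 6 arrays, among the 12314 other genes tested. With 6 points and groups that differ, high values of r are common, and 170 to 226 genes exceeded 0.95 for each of the 3 receptors. For Fzd2 the highest were Etnk1, an ethanolamine kinase (r = 0.997), Foxp1, a forkhead factor (r = 0.996), and Pdzrn3, a ubiquitin ligase linked to Wnt signalling (r = 0.995). For Fzd1 they were Prkab2, a subunit of the AMP-activated kinase (r = 0.999), the coactivator Ncoa2 (r = 0.993) and the centriole gene Poc5 (r = 0.992). For Fzd4 they were the imprinted RNA Meg3 (r = 0.998), Apool (r = 0.996) and the channel gene Trpc1 (r = 0.996). Likeness of pattern over the arrays did not mean a change of like size. Foxp1 and Pdzrn3 gave log2 fold changes of 0.75 and 0.89 (adjusted p = 0.000303 and 0.000454) and Prkab2 and Ncoa2 of 0.60 and 0.62 (adjusted p = 0.0206 and 0.0345), and these 4 passed. The other 5 did not: Etnk1 gave 0.27 (adjusted p = 0.127), Poc5 0.18 (adjusted p = 0.653), and the genes most like Fzd4 gave 0.09 for Meg3 (adjusted p = 0.587), 0.62 for Apool (adjusted p = 0.123) and 0.45 for Trpc1 (adjusted p = 0.186).

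The calls of the Frizzled genes were followed over 12 to 14 other ways of processing, depending on the probe set, and 6 fits with 1 pool left out. Each fit that held a called probe set kept its direction; 1418533_s_at had no value where suffixed probe sets were left out, and gene means stand only under the brightest probe set of a gene. Fzd1 and the Fzd2 probe set 1418534_at were lost only with dim probe sets kept in the test (adjusted p = 0.0966 and 0.0837). In that setting 2 Frizzled probe sets, both of Fzd2, were called, and without an intensity trend in the variance 3 were, of Fzd1 and Fzd2. Fzd4 was thus lost in both settings (adjusted p = 0.14 and 0.0605), and Fzd8 also under quantile normalization (adjusted p = 0.0524) and on the deposited scale (adjusted p = 0.0962).

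**Figure D5:**
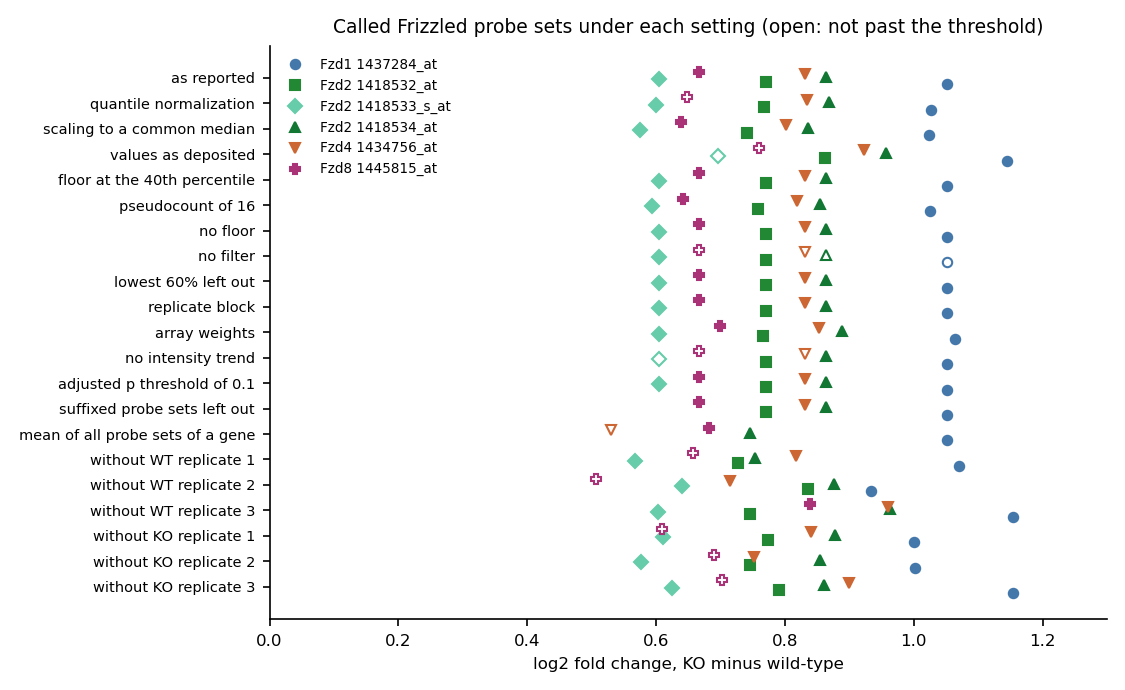
Log2 fold change (KO minus wild-type) of the 6 called Frizzled probe sets under each way of processing and with each pool left out; open symbols did not pass the threshold. All values lie to the right of 0, from 0.51 for Fzd8 without wild-type replicate 2 to 1.15 for Fzd1.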

How the data were processed

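Expression was measured on 1-channel arrays, 3 of wild-type and 3 of Emx2 KO pools. Per the labels, 15 ng of total RNA from each pool went through 2 rounds of amplification before biotin labelling, which shortens the copied RNA and can dim probe sets far from the 3' end. The authors deposited 1 linear intensity per probe set. Per the submitters' processing notes the software was GCOS 1.2. The algorithm and scaling target are not given in the sources used here. Detection calls were not used.

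Arrays were scaled to a common 2% trimmed mean (309.2), since trimmed means differed by more than the 5% set as limit. Values under the 20th percentile were raised to it (7.99) before log2 values were formed. Left out were 64 control probe sets and the 40% of lowest mean. The contrast of KO and wild-type was fitted in R 4.3.3 by limma 3.58.1, whose eBayes step let the variance follow intensity. Its two-sided p-values were adjusted by Benjamini-Hochberg over 27022 probe sets, with a threshold of 0.05. The number of arrays limits the precision: the median SE of a log2 fold change was 0.19. On simulated arrays (27022 probe sets) 59 of 97 changes of 2-fold were recovered (60.8%) and 83 of 96 of 4-fold (86.5%), with 7 false calls. No other probe set was changed there, and noise was drawn independently for each probe set. In the data 1264 were called, so the adjustment was less strict, and the simulated rates need not hold for this comparison.

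Names came from the platform's annotation, in which 34958 probe sets had 1 symbol, 932 several and 9211 none. Opposite-strand transcripts were left out. No test of a gene list was run. The genes named were all Frizzled probe sets, up to 4 called members of each Wnt list by size, filled to 2 by p, and the 3 genes most like each of the 3 Frizzled genes of smallest p. The members, lists and rules were chosen with earlier results of these data known. The strand of the promoter sequences was checked by the place of TATAAA before the starts of genes on both strands. The alternatives tried were other scalings, floors, filters and variance models, a replicate block, a looser threshold, fewer probe sets, gene means and each pool left out.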

Additional observations from a re-analysis of the deposited data

How the results depend on the processing

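The 6 Frizzled probe sets called higher, from 4 genes, became 2 from 1 gene with no filter on dim probe sets and 3 from 2 genes without an intensity trend, and the 19 called Wnt list genes became 3 and 6. Over all probe sets these settings gave 151 and 541 calls in place of 1264, so they call fewer of every kind. With 1 pool left out the Frizzled counts ran from 5 to 6 higher and 0 to 1 lower, from 3 to 4 genes, and the Wnt list count from 9 to 18; fewer samples entered those fits. The log2 fold change of the brightest Fzd3 probe set turned to -0.1111 when all tested Fzd3 probe sets were averaged. With 1 pool left out it ran from -0.0395 (without wild-type replicate 2) to 0.0825. That of the Fzd4 probe set 1419301_at ran from -0.0623 (without wild-type replicate 2) to 0.4289 and that of the dimmer Fzd5 probe set from -0.0938 (without wild-type replicate 1) to 0.2328. None of these had passed, and the cause was not tested. Averaging gives no count of probe sets. Values as deposited moved the median of all tested probe sets to 0.10. Whether replicate numbers pair the pools is not stated. Deviations from the group mean correlated at -0.07, 0.04 and -0.05 between same-numbered pools and at -0.08 to 0.13 between the others. Not every pool correlated best with its own number. With groups of 3 centred on their means, this check cannot exclude that same-numbered pools shared a litter or a run. With the replicate block 6 Frizzled probe sets were called and 1160 overall; Corin, Notum and Rspo1 were lost (adjusted p = 0.0571, 0.0534 and 0.059) and Tspan12 passed (0.0286). Groups of 3 are too small for an outlier check.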
